A study of Mus musculus with 6 samples.

Results

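The enzyme families described here carry out the oxidation and the conjugation of drugs. They were taken by name as the protein-coding genes of the Cyp1, Cyp2 and Cyp3 cytochrome P450 families and of the glutathione S-transferase (Gst and Mgst), UDP-glucuronosyltransferase (Ugt) and sulfotransferase (Sult) families, which gave 126 of the 48709 genes in the count table. They comprised 58 Cyp, 25 Gst, 22 Ugt and 21 Sult genes. RNA was sequenced from gonads of 13.5 dpc (days post coitum) female embryos of wild-type CD1 mice, as 3 control and 3 APAP+IBU libraries, one per pool. The APAP+IBU dams received acetaminophen (APAP, 30 mg/kg per day) and ibuprofen (IBU, 15 mg/kg per day) by gavage from 10.5 to 13.5 dpc, with the drugs alternating every 3 h, 4 times a day, and the control dams received the ethanol vehicle. In the sample titles the exposed libraries carry the name of IBU only, but their exposure label names both drugs. The libraries are of whole gonads, so fewer cells of a type and less RNA per cell cannot be told apart in any value below.

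Acetaminophen is cleared mainly in the liver, by glucuronidation and sulfation of the unchanged drug. A smaller share is oxidised by cytochrome P450 enzymes, chiefly CYP2E1, to a reactive quinone imine that glutathione S-transferases and free glutathione remove. Many genes of these families are switched on by ligand-activated receptors such as the aryl hydrocarbon receptor, or by the stress-activated factors NRF2 and AP-1, and beyond drugs they act on steroids, retinoids, vitamin D, bile acids and oxidised lipids.

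Total counts per library ran from 37811968 to 48954631, and 3 counts corresponded to 0.0591 to 0.0803 CPM (counts divided by library size on the usual scale, with TMM normalisation). Counts of 0 were left at 0 in the CPM values. Of the lists used to check the tissue, all 10 fetal ovary somatic genes and all 8 female germ cell genes passed the expression filter. So did all 24 liver genes, all 12 spermatid genes and 74.4% of protein-coding genes, so passing does not tell tissues apart. The replicate 3 library of each group stood apart. The summed level of 24 liver genes was 287, 610 and 2445 CPM in control replicates 1, 2 and 3 and 221, 461 and 3875 CPM in APAP+IBU replicates 1, 2 and 3, none of the 24 was at 0 throughout, and 23 were at least 2 times higher in both replicate 3 libraries than in replicates 1 and 2 of their group. Results are therefore given with all 6 libraries and with replicates 1 and 2 alone.

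Short upstream sequences are shown first for 4 genes described below, Gstp1, Gstp2, Gstm5 and Cyp1b1, because these windows hold binding letters of the factors named above. Each comes from RefSeq on GRCm38.p6, is written 5′ to 3′ on the gene's strand, and has the matched letters in capitals. The first 3 are 30 bases around a match to the AP-1 letters TGAGTCA, which read TGACTCA on the other strand, at chr19:4037969-4037998 for Gstp1 and chr19:4042293-4042322 for Gstp2, both on the minus strand, and chr3:107895666-107895695 for Gstm5 on the plus strand. The match begins 74 bases before the RefSeq gene start in Gstp1, 89 bases before it in Gstp2 and 176 bases before it in Gstm5. Upstream is meant relative to the RefSeq start. In GENCODE M21, 17 of the 30 bases for Gstp1 and all 30 for Gstm5 lie in annotated exons, and the Gstp2 window lies within the span of a longer Gstp2 gene model, outside its exons. The last is the whole 250 bases before Cyp1b1, chr17:79715062-79715311 on the minus strand, with the xenobiotic response core GCGTG, here read from the other strand as CACGC.
Gstp1: tctccaacgtgtTGAGTCAgcatccggggc
Gstp2: tctccaacgtgtTGAGTCAgcatccggggc
Gstm5: aactgtgcaacaTGACTCAcgcttcccggg
Cyp1b1: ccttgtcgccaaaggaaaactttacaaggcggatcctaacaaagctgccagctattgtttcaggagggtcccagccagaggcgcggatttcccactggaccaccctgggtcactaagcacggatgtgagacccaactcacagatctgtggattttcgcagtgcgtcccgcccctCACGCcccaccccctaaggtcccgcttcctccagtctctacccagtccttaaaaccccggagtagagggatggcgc
The 30 bases of Gstp1 and Gstp2 were the same letters, and their 250 bases upstream were identical at 207 of 265 aligned columns (78.1%). The promoter of Gstp3, the next gene of the cluster, was 47.7% identical to that of Gstp1 and held no AP-1 letters. In the 250 bases upstream, the AP-1 letters were present in 9 of the 110 family genes with a RefSeq promoter against 4.46% of 32851 promoters, and the xenobiotic core in 20 of the 110 against 28.2%. The antioxidant core TGACNNNGC was present in 4 of the 110 (Gsta3, Gstm5, Gstm7 and Mgst1) against 10.2%. A family gene was counted if any promoter listed for it held the letters, whereas the percentages are of single promoters, so the units differ. These matches are descriptions of letters and say nothing of binding in the ovary.

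In the 13.5 dpc ovary the glutathione S-transferases were expressed almost as a whole, and most other families were not. Of the 126 genes, 48 passed the expression filter, whereas 74.4% of all 21695 protein-coding genes did, and 30 had a mean level of at least 1 RPKM (CPM per kilobase of exon), which 57.4% of protein-coding genes reached. The filter kept 24 of 25 Gst genes, 11 of 58 Cyp genes, 7 of 21 Sult genes and 6 of 22 Ugt genes. Among the other 78 genes, 23 had no count in any library, including 6 of the 15 Cyp2c genes and 4 of the 9 Sult2 genes, and the highest mean level was 0.425 RPKM.

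The mu-class glutathione S-transferases lead the order. Gstm2 had the highest mean level of all these genes, 151 RPKM, and was followed by Gstm1 at 87.9 RPKM, Gstm5 at 54.6 RPKM and the pi-class Gstp1 at 48.1 RPKM. Below them were Mgst3 (38.0 RPKM) and Mgst1 (30.6 RPKM), which are membrane-bound enzymes of the same activity, Gsta4 (35.0 RPKM), which conjugates the lipid peroxidation product 4-hydroxynonenal, and Gstm7 (31.4 RPKM). Only Gstm2 was above the rest in every library. The ranges of Gstm1 and Gstm5 over the 6 libraries did not overlap, but that of Gstp1 (31.2 to 76.6 RPKM) overlapped both. Within each of the 6 libraries Gstm1 had more CPM than Gstp1. From Gstm5 down to Mgst1 each gene's range overlapped that of the next, so their order was not separated beyond the spread. The 7 Gstm genes lie together on chromosome 3 of GRCm38, from 107895821 to 108044894, and all passed the filter.

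**Figure D1:**
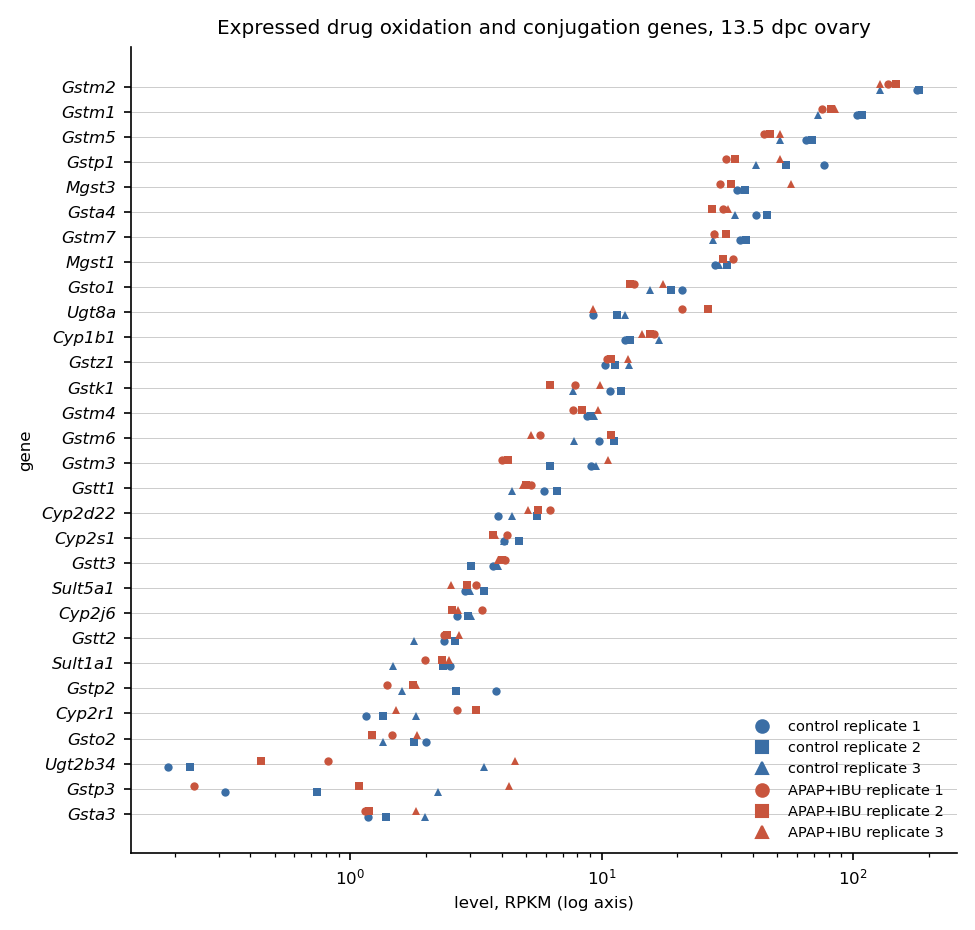
Level in RPKM (log axis) of the 30 genes with a mean of at least 1 RPKM, one symbol per library, with controls in blue and APAP+IBU in red. Gstm2, at a mean of 151 RPKM, is at the top, 21 of the 30 genes are Gst genes, and in Ugt2b34 and Gstp3 the triangles of both replicate 3 libraries lie above the other libraries.

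Outside the Gst genes only 2 others exceeded 10 RPKM on average, and neither is mainly a drug enzyme. Ugt8a (15.0 RPKM) transfers galactose to ceramide, the first step of the galactolipids of myelin. Cyp1b1 (14.8 RPKM) hydroxylates oestradiol and is a target of the aryl hydrocarbon receptor. The next P450 genes were Cyp2d22 (5.12 RPKM), Cyp2s1 (4.09 RPKM) and Cyp2j6 (2.87 RPKM), and Cyp2r1, the vitamin D 25-hydroxylase, had 1.95 RPKM. The highest Sult genes were Sult5a1 (2.98 RPKM) and the phenol sulfotransferase Sult1a1 (2.18 RPKM). No Cyp3 gene passed the filter, and their best-covered members Cyp3a16 and Cyp3a13 had mean levels of 0.212 and 0.0179 RPKM.

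The genes that act on acetaminophen itself had few counts and did not pass the expression filter, except for those of the sulfation and glutathione steps. Cyp2e1, the main oxidising enzyme, had 3, 5 and 8 counts in control replicates 1 to 3 and 12, 10 and 13 counts in APAP+IBU replicates 1 to 3. In CPM these were 0.0787, 0.134 and 0.184 in controls and 0.237, 0.218 and 0.338 after exposure. The groups did not overlap, but no library exceeded 0.338 CPM, the gene did not pass the filter, and the exact two-sided permutation test gave p = 0.1, the smallest that 3 libraries against 3 can give. Cyp1a2 had at most 0.214 CPM and was at 0 in 3 of the 6 libraries.

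Cyp3a11, a major liver P450, had counts in APAP+IBU replicate 3 alone, at 0.260 CPM. Of the glucuronidating enzymes, Ugt1a1 reached at most 0.130 CPM, Ugt1a6a at most 0.312 CPM and Ugt1a9 at most 0.521 CPM, each in APAP+IBU replicate 3. The Ugt1a transcripts share their last exons, and 58.2% of the 50-base words of Ugt1a1 and 62.0% of those of Ugt1a9 occur in other genes, so counts of the single Ugt1a genes are uncertain.

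For sulfation, Sult1a1 had 3.75, 3.53 and 2.23 CPM in control replicates 1 to 3 and 3.00, 3.49 and 3.72 CPM in APAP+IBU replicates 1 to 3. These ranges overlapped, and its log2 fold change was 0.10 (standard error 0.27). For the glutathione step, Gstp1, Gstp2 and Gstm1 together had 276, 246 and 172 CPM in controls and 160, 176 and 207 CPM after exposure.

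The comparison of APAP+IBU with control asks which of these genes responded to the drugs in the fetal ovary. With all 6 libraries edgeR's quasi-likelihood test gave none of the 48 tested genes an adjusted p below 0.05, as was the case for 0.0% of all 20167 tested genes, and the smallest adjusted p of the 48 was 0.219. At an unadjusted p under 0.05 there were 4 of 48, against 6.22% of all tested genes. Cyp2r1 was the 1 higher gene, against 3.0% of all tested genes, and Gstt4, Gsta4 and Gstm5 were the 3 lower genes, against 3.21%. The count was 16 without control replicate 3, where 30.5% of all tested genes passed, and 8 without APAP+IBU replicate 3, against 11.4%. It was 2 without control replicate 1 (3.23% of all genes), 1 without control replicate 2 (3.35%), 1 without APAP+IBU replicate 1 (3.11%) and 2 without APAP+IBU replicate 2 (2.8%). The fits without control replicates 1, 2 and 3 tested 59, 59 and 48 family genes. Those without APAP+IBU replicates 1, 2 and 3 tested 54, 54 and 50. In DESeq2, 1 of 48 genes had an adjusted p under 0.05, Gstt4, against 0.952% of all tested genes.

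By direction, 28 of the 48 genes had a negative log2 fold change (58.3%, against 50.6% of all tested genes), with a median of -0.12 against -0.0047 over all tested genes. Among Gst genes it was 19 of 24, with a median of -0.22, including all 7 Gstm genes. The 7 Gstm values stayed negative with every scaling and with any library left out, whereas after correction for gene length and GC content 6 of 7 were negative, or 5 of 7 with replicates 1 and 2 only. The summed level of the Gst genes was 1069, 1071 and 838 CPM in controls and 798, 844 and 905 CPM after exposure. Control replicate 3 thus lay with the exposed libraries.

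In 4 of the 48 genes (Gsta4, Gstm5, Gstt4 and Ugt1a7c) every APAP+IBU library lay below every control library, against 5.92% of all tested genes, and no gene had the opposite arrangement, against 4.78%. Gsta4 had 52.0, 57.4 and 43.0 CPM in controls and 38.5, 34.7 and 40.4 CPM after exposure, and its log2 value was -0.42 (standard error 0.15, unadjusted p = 0.0203, adjusted p = 0.692 in edgeR's test). Gstm5 had 83.2, 88.1 and 65.7 CPM in controls and 56.6, 59.9 and 65.4 CPM after exposure, and its log2 value was -0.38 (standard error 0.14, unadjusted p = 0.0293, adjusted p = 0.692 in edgeR's test). In both genes control replicate 3 was the lowest control and APAP+IBU replicate 3 the highest exposed library, so that the groups were nearly in contact. Without control replicate 3, Gsta4, Gstm5 and Gstt4 had adjusted p-values under 0.05 in edgeR's test. In that fit 30.5% of all tested genes had an unadjusted p under 0.05, and their share at the adjusted threshold was not counted. These calls therefore cannot be read as particular to these genes. Ugt1a7c had 0.589 to 0.737 CPM in controls and 0.312 to 0.546 CPM after exposure, and 69.3% of its 50-base words occur in other genes.

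Gstt4 (ENSMUSG00000009093), a theta-class transferase on chromosome 10 (75814943 to 75822543), had the largest difference. It had 1.84, 0.669 and 0.576 CPM in controls and 0.177, 0.0437 and 0.130 CPM after exposure, which are 70, 25 and 25 counts against 9, 2 and 5 counts. All exposed libraries lay well below the controls, control replicate 1 was the highest of all, and the log2 fold change was -3.09 (standard error 0.66, unadjusted p = 0.00157, adjusted p = 0.219 in edgeR's test) or -3.12 in DESeq2 (adjusted p = 0.00508). A list of 12 genes of spermatids moved with it. Its summed level was 151, 48.3 and 47.2 CPM in controls and 9.37, 4.08 and 5.36 CPM after exposure, with control replicate 1 again the highest, and all 12 genes were tested and lower at an unadjusted p under 0.05. None of the 12 was at 0 throughout, and their part in the result for Gstt4 was not tested.

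**Figure D2:**
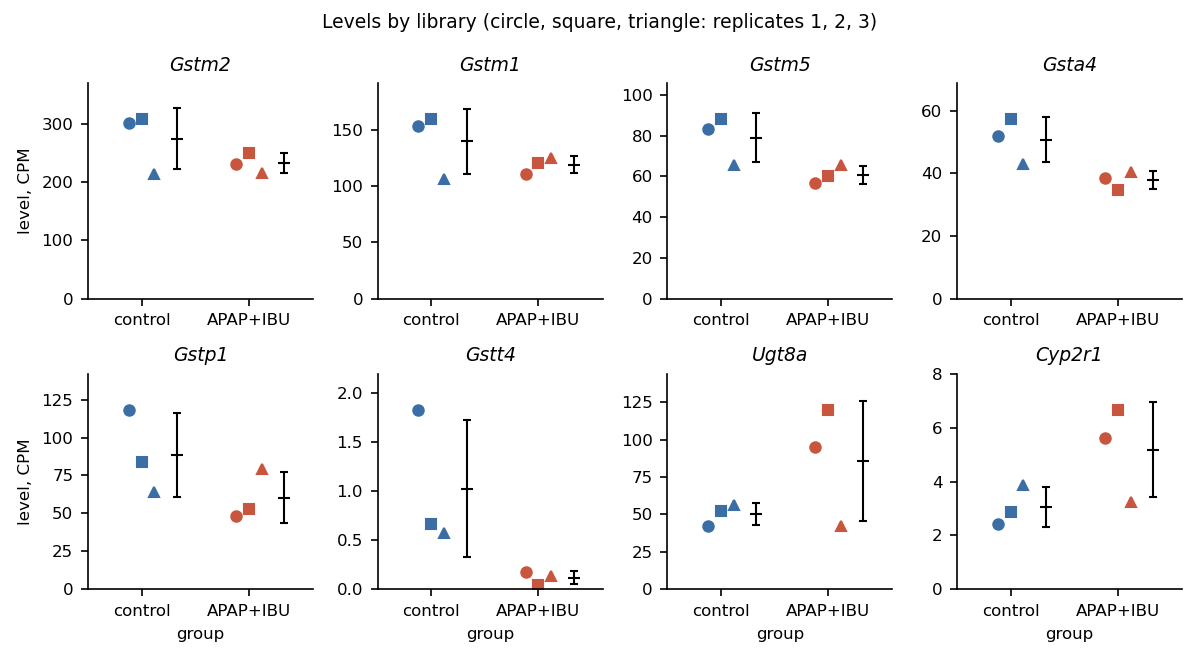
Level in CPM of 8 genes in each library, with circles, squares and triangles for replicates 1, 2 and 3, and the mean with its SD (n = 3) in black beside each group. In Gstm2, Gstm1, Gstm5 and Gsta4 control replicate 3 is the lowest control, and in Ugt8a and Cyp2r1 the APAP+IBU replicate 3 library lies with the controls at 41.9 and 3.23 CPM.

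With replicates 1 and 2 of each group alone, edgeR's test gave 14 of 47 tested genes an adjusted p below 0.05, against 27.2% of the 20633 genes tested. In 29 of the 47 both exposed libraries lay on one side of both controls, against 68.8% of all genes. The 10 lower genes were all Gst genes (10 of 24 tested, against 12.9% of all genes lower), and the 4 higher were Ugt8a, Cyp2r1, Ugt2b34 and Cyp1b1 (4 of 47, against 14.2%). No Sult gene passed. The replicate 3 libraries, which this fit did not use, gave the same direction for 3 of the 10 lower genes and 1 of the 4 higher genes. The share over all genes called in this fit was not counted. Near ties fell on either side, with 65.7 CPM (control) and 65.4 CPM (exposed) in Gstm5 and 214 and 215 CPM in Gstm2. These libraries are called the replicate 3 pair below, although no source used here ties them to the same experiment. Other lists moved with the group in replicates 1 and 2. The summed level of 11 erythroid genes was 7119 and 17208 CPM in these controls and 3386 and 5640 CPM after exposure (11184 and 10506 CPM in the replicate 3 pair), with 4 genes lower and 1 higher at an adjusted p under 0.05. The 6 macrophage genes summed to 95.6 and 105 CPM against 72.7 and 67.5 CPM (98.6 and 91.8 CPM in the replicate 3 pair), with 2 lower. Of 7 steroidogenic genes 2 were lower, with a median log2 fold change of -0.93. Of 10 fetal ovary somatic genes 1 was higher (Lgr5, 0.87) and 1 lower (Wnt4, -0.45). Of 6 endothelial genes 1 was lower (Pecam1, -0.35), as were 1 of 24 liver genes (Apoa1, -1.37) and 11 of 12 spermatid genes. No gene of the 8 of the mesonephric tubule and duct was called. Of 8 female germ cell genes 4 were higher (Sycp1, Sycp3, Dazl and Ddx4) and 4 lower (Pou5f1, Dppa3, Rec8 and Stra8), and their summed level was 1521 and 1417 CPM against 1572 and 1720 CPM (1443 and 1294 CPM in the replicate 3 pair). Sycp1, of the meiotic synaptonemal complex, had the same arrangement as Ugt8a and Cyp2r1 below, with 22.2, 34.0 and 31.2 CPM in controls and 79.6, 89.0 and 27.6 CPM after exposure. Corrected for length and GC content, Sycp1 (log2 fold change 0.73), Pou5f1 (-0.51) and Dppa3 (-0.84) kept an adjusted p under 0.05 in edgeR's test. The calls of Dazl (-0.08, adjusted p = 0.654), Sycp3 (0.296), Ddx4 (0.634), Rec8 (0.0693) and Stra8 (0.376) were lost. The steroidogenic calls, Cyp21a1 and Cyp17a1, were kept, and no erythroid or macrophage gene passed. Lgr5 and Pecam1 were also kept, whereas Wnt4 (adjusted p = 0.195 in edgeR's test) and Apoa1 (0.123) were lost. Rspo1, Gata4 and Emcn, of the somatic and endothelial lists, passed only with the correction. No gene of these lists was at 0 throughout, the exposed libraries of these replicates were also the deepest of the 6, and the part of these differences in the values of the Gst genes, Ugt8a and Cyp2r1 was not tested.

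Among the pi-class genes, Gstp1 (ENSMUSG00000060803, chromosome 19, 4035407 to 4037985) had 119 and 83.6 CPM in control replicates 1 and 2 and 48.3 and 52.8 CPM in APAP+IBU replicates 1 and 2. It fell by 0.98 on the log2 scale (adjusted p = 0.00815 in edgeR's test, standard error 0.16). The replicate 3 pair had the opposite order, with 63.8 CPM before 79.4 CPM in control and exposed ovaries, and over all 6 libraries the groups overlapped at a value of -0.56 (standard error 0.26, adjusted p = 0.692). The neighbouring Gstp2 had 4.25 and 2.95 CPM against 1.56 and 1.99 CPM, and fell by 1.0 (standard error 0.30, adjusted p = 0.047). The 2 genes cannot be fully separated, since 62.3% of the 50-base words of Gstp1 occur in Gstp2. Gstp3, which shares no such word, had 0.289 and 0.669 CPM against 0.217 and 0.983 CPM and overlapped.

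Among the mu-class genes, Gstm2 (302 and 309 CPM against 232 and 250 CPM) fell by 0.32 (standard error 0.09, adjusted p = 0.0354) and Gstm1 (153 and 160 CPM against 111 and 121 CPM) by 0.42 (standard error 0.09, adjusted p = 0.0166). Gstm5 fell by 0.54 (adjusted p = 0.00876) and Gstm3 by 0.87 (adjusted p = 0.0306), in edgeR's test of these 4 libraries. In all of these genes both exposed libraries lay below both controls. In the replicate 3 pair Gstm2 had 214 (control) and 215 CPM (exposed), and Gstm1 had 107 and 125 CPM. In Gstm1 and Gstm3, 23.1% and 28.8% of the 50-base words occur in other genes, while Gstm5 shares none.

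The remaining lower genes were Gstt4 (-3.42, adjusted p = 0.0186), Gsta4 (-0.56, adjusted p = 0.0135), the mitochondrial and peroxisomal Gstk1 (-0.67, adjusted p = 0.0311) and Gsto1 (-0.57, adjusted p = 0.0129), an omega-class enzyme with thioltransferase activity, in log2 fold change. Gstk1 had 15.9 and 17.6 CPM in control replicates 1 and 2 and 11.6 and 9.15 CPM in APAP+IBU replicates 1 and 2. The membrane-bound enzymes did not pass, with log2 fold changes of 0.11 for Mgst1 (standard error 0.11) and -0.19 for Mgst3 (standard error 0.11).

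Of the higher genes, Ugt8a (ENSMUSG00000032854, chromosome 3, 125865271 to 125938619) had the smallest adjusted p of these families. It had 42.1 and 52.3 CPM in control replicates 1 and 2 and 94.9 and 120 CPM in APAP+IBU replicates 1 and 2, and rose by 1.21 on the log2 scale (adjusted p = 0.00623 in edgeR's test, standard error 0.15). In the replicate 3 pair the exposed library, at 41.9 CPM, was below the control at 56.1 CPM, so over all 6 libraries the groups overlapped (0.77, standard error 0.34, adjusted p = 0.692). Cyp2r1 had the same arrangement, with 2.44, 2.87 and 3.87 CPM in controls and 5.64, 6.68 and 3.23 CPM after exposure. It rose by 1.23 with replicates 1 and 2 (standard error 0.23, adjusted p = 0.0113), and its value over 6 libraries was 0.76 (standard error 0.32, unadjusted p = 0.0462, adjusted p = 0.692).

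Cyp1b1 (ENSMUSG00000024087, chromosome 17, 79701537 to 79715061) had 72.7 and 75.6 CPM in control replicates 1 and 2 and 94.8 and 90.9 CPM in APAP+IBU replicates 1 and 2, and rose by 0.35 (adjusted p = 0.03 in edgeR's test, standard error 0.09). Control replicate 3, at 99.2 CPM, was the highest of the 6 libraries, and APAP+IBU replicate 3 had 85.0 CPM. Cyp1a1, the other aryl hydrocarbon receptor target in the family to pass the filter, had 0.536 to 0.603 CPM in controls and 0.296 to 0.546 CPM after exposure, which overlapped. Ugt2b34 rose by 1.61 (standard error 0.40, adjusted p = 0.0252) from 0.813 and 0.991 CPM to 3.51 and 1.90 CPM, and is one of the genes set apart in replicate 3.

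The other named genes passed neither fit at an adjusted p of 0.05, and their groups overlapped over 6 libraries. Among P450 genes, Cyp2d22 had 15.1, 21.6 and 17.2 CPM in controls and up to 24.5 CPM after exposure, where replicate 2 had 21.8 CPM (log2 fold change 0.30, standard error 0.18). The 6 values of Cyp2s1 lay between 18.3 and 23.1 CPM (-0.14, standard error 0.15), and those of Cyp2j9, a gene of the arachidonic acid epoxygenase family, between 0.603 and 1.44 CPM (0.36, standard error 0.35). Gstt3, a theta-class gene like Gstt4 but more highly expressed, had 11.6 to 14.9 CPM in controls and 14.9 to 15.9 CPM after exposure (0.18, standard error 0.16).

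No sulfotransferase passed either test. Sult5a1 had 12.7 to 15.1 CPM in controls, and its lowest library was APAP+IBU replicate 3 at 11.1 CPM (-0.11, standard error 0.17). Sult4a1, an orphan sulfotransferase best known from brain, had 3.25, 3.05 and 1.84 CPM in controls and 1.97, 1.33 and 2.32 CPM after exposure (-0.54, standard error 0.33, and -0.91 with replicates 1 and 2, adjusted p = 0.0646 in edgeR's test). In replicates 1 and 2 its exposed libraries lay below the controls, and in replicate 3 above. Sult2b1, which sulfates cholesterol, had 1.27 to 2.18 CPM in controls and 1.56 to 2.21 CPM after exposure. Sult1d1 varied within both groups, from 0.315 to 1.80 CPM in controls and from 0.437 to 1.36 CPM after exposure. Of the low Ugt genes, Ugt3a1 had 0.813 to 1.36 CPM in controls and 0.966 to 1.14 CPM after exposure, and Ugt2b36 was highest in APAP+IBU replicate 3 at 1.67 CPM, against 0.0986 to 0.668 CPM in the other 5 libraries.

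Gene length and GC content moved with these calls. The 10 lower genes had a median of 1390 exon bases and 51.6% GC and the 4 higher genes 4424 bases and 38.6% GC, against 3550 bases and 49.3% over all tested genes. After each library was corrected for both, 3 of 47 genes kept an adjusted p under 0.05 in edgeR's test of replicates 1 and 2, against 15.0% of all genes. The lower genes, against 8.5% of all genes, were Gstt4 (log2 fold change -3.06, adjusted p = 0.0285) and Gstp1 (-0.49, adjusted p = 0.0337), and the higher gene, against 6.53%, was Ugt8a (0.52, adjusted p = 0.0378). The median over the 24 Gst genes moved from -0.32 to -0.19.

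**Figure D3:**
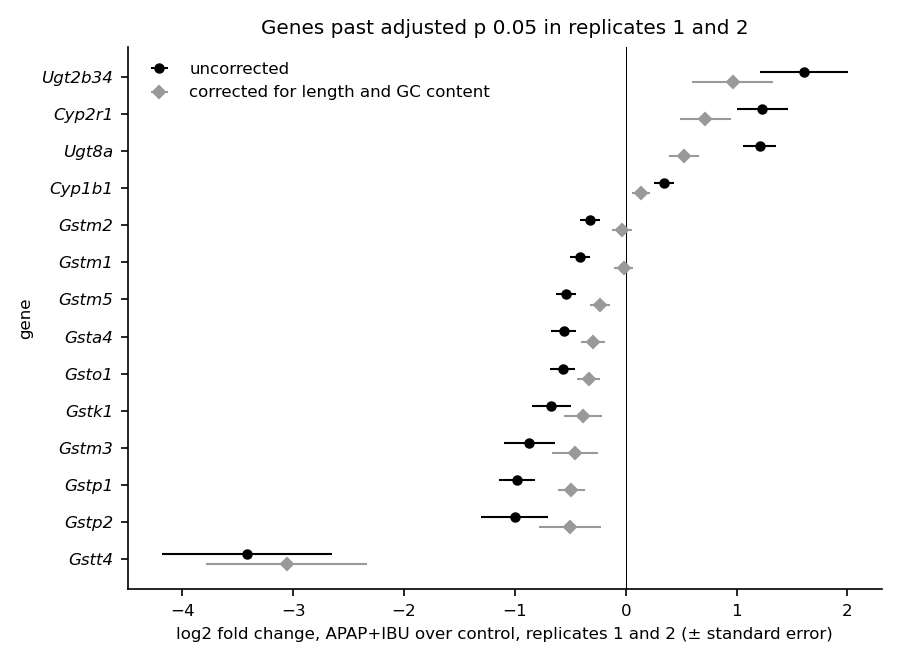
Log2 fold change of APAP+IBU over control, with its standard error, in replicates 1 and 2 for the 14 genes past an adjusted p of 0.05, before (black circles) and after (grey diamonds) correction for gene length and GC content. All 14 corrected values are nearer to 0, and Gstm2 and Gstm1 reach -0.03 and -0.02.

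Both replicate 3 libraries had higher levels of several family genes best known from the liver. Of the 48 tested genes, 4 were at least 2 times higher in both replicate 3 libraries than in replicates 1 and 2 of their group, against 1.15% of all tested genes, and these were Ugt2b34, Ugt2b35, Cyp2c23 and Gstp3. Ugt2b34 had 0.813, 0.991 and 14.7 CPM in controls and 3.51, 1.90 and 19.5 CPM after exposure, so replicate 3 was 16.3 times and 7.21 times the mean of the others. Ugt2b35 had 0.0262, 0.0803 and 1.57 CPM in controls and 0.0986, 0.393 and 2.37 CPM after exposure. Gstp3 had 2.03 and 3.88 CPM in replicate 3 of controls and of APAP+IBU, against at most 0.983 CPM in the other libraries.

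Genes below the filter were also higher there. Of the 31 such genes with at least 10 counts in all, 14 were at least 2 times higher in both replicate 3 libraries, against 4.48% of the 5692 genes of that kind in the whole table, among them Cyp2c67, Cyp2c68, Cyp2c70, Cyp3a16, Sult2a8, Ugt1a6b and Ugt1a9. The 15 Cyp2c genes, a large hepatic P450 cluster on chromosome 19, summed to 0.525, 0.669 and 3.50 CPM in controls and 0.572, 1.16 and 5.65 CPM after exposure, with every gene below 1 RPKM. The 7 Cyp3 genes summed to 0.0262, 0.187 and 0.415 CPM in controls and 0.0591, 0.218 and 1.98 CPM after exposure. The liver genes given above were higher in the same libraries, and their part in these values was not tested.

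**Figure D4:**
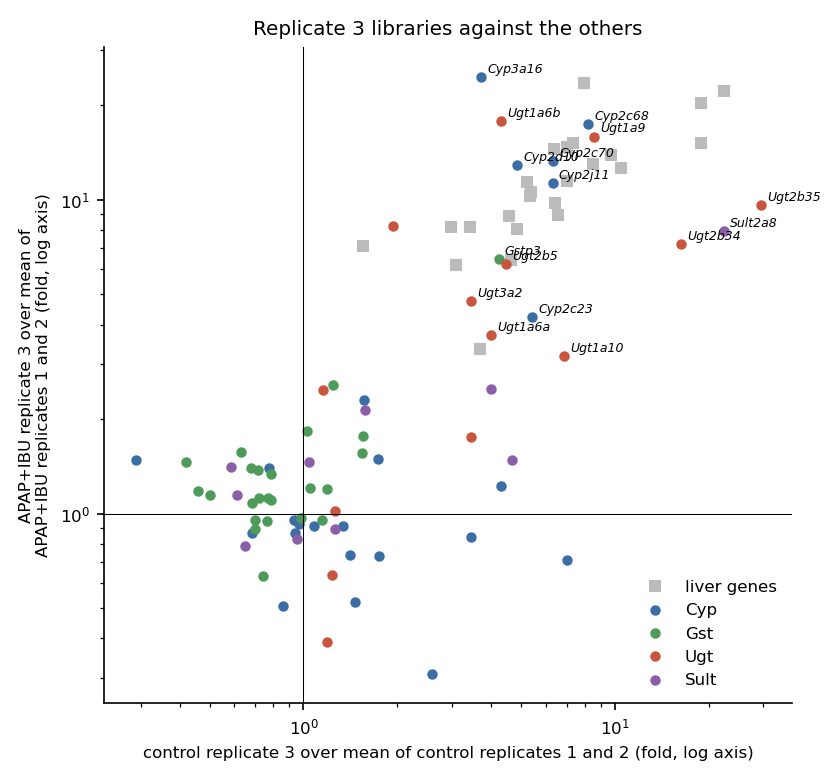
Fold of the replicate 3 library over the mean of replicates 1 and 2 in controls (horizontal, log axis) and in APAP+IBU (vertical, log axis), for 72 of the 79 family genes with at least 10 counts (the other 7 have a 0 on one side) and 24 liver genes (grey squares). Most Gst genes lie within 2 times of 1 on both axes, while Ugt2b34, at 16.3 and 7.21, and several Ugt, Cyp2 and Sult2 genes lie among the liver genes.

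Other genes of the pathway were read from lists of receptors, electron donors, cosubstrate supply, further conjugation enzymes and export pumps. With all 6 libraries none of them had an adjusted p under 0.05. With replicates 1 and 2, where 14.2% of all genes were higher and 12.9% lower, 2 of 10 receptor genes were higher at an adjusted p under 0.05 in edgeR's test (Ahr, the aryl hydrocarbon receptor, 0.50, and Ppara, 0.97, in log2 fold change) and 1 was lower (Keap1, the repressor of NRF2, -0.49). Of 4 electron donors 2 were lower, Cyb5a (-0.31) and Cyb5r3 (-0.61), and Por, the main P450 reductase, had -0.32 (adjusted p = 0.139). Of 10 cosubstrate genes 3 were lower, the glutathione synthetase Gss (-0.65), the glutathione reductase Gsr (-0.49) and Slc35b2 (-0.47), which carries the sulfate donor into the Golgi.

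None of 11 further conjugation and hydrolysis enzymes passed with replicates 1 and 2. The soluble epoxide hydrolase Ephx2 had 20.2, 20.9 and 18.8 CPM in controls and 15.5, 14.7 and 15.6 CPM after exposure, without overlap (unadjusted p = 0.025 over 6 libraries in edgeR's test). Among the tested genes of these pathway lists Cyb5b was also lower without overlap, and Ahrr and Abcc5 were higher. Of all tested genes 5.92% were lower and 4.78% higher in this way. Of 8 export pumps 2 were higher with replicates 1 and 2, Abcc2 (1.10, adjusted p = 0.0162) and Abcc5 (0.80, adjusted p = 0.0105). Abcc5, a pump of cyclic nucleotides and conjugates, had 79.7, 106 and 143 CPM in controls and 169, 150 and 143 CPM after exposure, so the replicate 3 libraries were nearly equal. After correction for length and GC content, 4 of these 10 pathway genes kept an adjusted p under 0.05 in edgeR's test of replicates 1 and 2, namely Ppara (1.06), Gss (-0.77), Gsr (-0.40) and Abcc5 (0.65). The calls of Ahr (adjusted p = 0.162), Keap1 (0.245), Cyb5a (0.101), Cyb5r3 (0.0608), Slc35b2 (0.902) and Abcc2 (0.068) were lost. Gclm (-0.53, adjusted p = 0.0115) and Abcg2 (-0.57, adjusted p = 0.00915) passed edgeR's test of replicates 1 and 2 only with the correction.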

How the data were processed

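Polyadenylated RNA of 3 control and 3 APAP+IBU pools was sequenced, and per the labels the reads were processed with bcl2fastq 2.17.1.14, TopHat2 2.0.14, Bowtie2 2.1.0 and HTSeq 0.6.1. The authors mapped to mm10, assigned reads to genes of Ensembl release 86 and deposited the counts raw, and the setting of the counting for strand and overlapping genes is not given in the sources used here. Groups and replicate numbers came from the labels. GENCODE M21 (GRCm38, the same assembly) gave names, positions, exon lengths and GC content.

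edgeR 4.0.16 (R 4.3.3) was run on all genes with TMM scaling and its expression filter (minimum count 10, total 15), and its quasi-likelihood p was adjusted by the Benjamini-Hochberg method. DESeq2 1.42.0, other scalings and filters, the replicate block, a loess correction (span 0.3) for length and GC content, and fits without single libraries were alternatives. Shared sequence was measured as 50-base words of the longest transcript. Library pairs differed by more than sampling noise (chi-square per degree of freedom 18.8 to 158), so none was counted as a duplicate. Per the study's methods each pool held embryonic gonads from 2 dams of one experiment, so p-values measure the spread between such pools.

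Genes are named by level in each family, action on acetaminophen, smallest p, non-overlap, replicate 3 fold and calls in replicates 1 and 2. Others in the text, such as Gsto1, Gstm7, Cyp2j6 and the pathway genes given singly, were picked after their values were seen. Genes and lists were chosen with earlier results of these data known. The scripts were tested on simulated data.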

Additional observations from a re-analysis of the deposited data

How the results depend on the processing

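For 31 named tested genes, 448 of 487 values under the 16 alternatives kept their direction and their side of an adjusted p of 0.05, 20 passed that threshold only under the alternative, and 19 changed sign. With replicates 1 and 2 only, Mgst3 had a log2 fold change of -0.19, Sult1a1 -0.15 and Ugt2b36 -0.76. Corrected for length and GC content, Sult1d1 had -0.12. With that correction and replicates 1 and 2 only, an alternative chosen after seeing the data, Cyp2s1 had 0.14, Sult5a1 0.043 and Ugt2b36 -1.20. Leaving out each library in turn, the values ran from -0.73 to 1.64 for Cyp2c23, -0.12 to 1.43 for Sult1d1, -0.098 to 0.24 for Sult1a1, -0.088 to 0.29 for Sult2b1, -0.77 to 1.80 for Gstp3, -0.24 to 0.30 for Mgst3, -1.05 to 3.19 for Ugt2b34, -1.24 to 4.07 for Ugt2b35 and -1.20 to 1.10 for Ugt2b36. The cause was not tested.

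The number of genes with an adjusted p under 0.05 was 0 over 6 libraries, 14 with replicates 1 and 2, 3 of these with the correction added, 1 in DESeq2, and 0 to 3 with a library left out. At an unadjusted p under 0.05 it was 4, and 16 with replicates 1 and 2, 11 with the correction added, 2 with the correction over 6 libraries, and 1 to 16 with a library left out. The 4 genes without overlap were 29 with replicates 1 and 2 (of 47, against 68.8% of all tested genes). They were 2 at a mean of 1 CPM, 7 with no filter and 4 to 19 with a library left out, where no share over all genes was counted. Groups of fewer libraries separate more easily by design, so the last counts cannot be read as a result about these genes. Of all tested genes, 0.0% had an adjusted p under 0.05 over 6 libraries and 27.2% with replicates 1 and 2. It was 15.0% with the correction added and 0.952% in DESeq2. At an unadjusted p under 0.05 it was 6.22% over 6 libraries and 2.8% to 30.5% with a library left out. Over 6 libraries 10.7% did not overlap. For the other settings the share over all genes was not counted. With no filter, 103 genes had a count and their median log2 fold change was 0.13. At a mean of 1 RPKM, 30 genes were expressed in place of 48.

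Across genes, the deviations of libraries that share a number were not correlated (-0.07, -0.02 and -0.04), although both replicate 3 libraries were high in liver genes. Each experiment had a control and an exposed pool, but no source used here ties the numbers to experiments, so a pairing was not assumed. A fit with the replicate block gave 0 genes with an adjusted p under 0.05 and 2 at an unadjusted p. Genes under 10 counts are limited by depth, and with 3 libraries per group differences smaller than the spread between pools were not detectable.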
